A study of Mus with 9 samples.

Results

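The 43 genes described here are interferon-stimulated genes, chosen by symbol from the 54532 genes of the deposited table of mouse kidney RNA-seq. All 43 were found in the table, and all 43 were among the 15902 genes that had enough counts to be tested. The rule is a list of names and uses no measured value, although the list was drawn up with earlier results of these libraries known. By role they comprised 5 transcription factors, 4 sensors of foreign nucleic acid, 4 genes of the Ifit family, 4 of the Oas family, the 4 genes Mx1, Mx2, Rsad2 and Cmpk2, the ubiquitin-like modifier Isg15 with its protease Usp18, 4 membrane restriction factors, 7 interferon-inducible GTPases, 2 genes of the Ifi27 family and 7 others.

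Interferons are secreted cytokines, and those of type I are released by a cell that senses foreign or misplaced nucleic acid. Interferons bind receptors on neighbouring cells, and the receptor-bound kinases JAK1, JAK2 and TYK2 then activate the STAT proteins. Type I interferons act mainly through a complex that holds STAT2 and IRF9. Many genes respond both to them and to interferon gamma, while the guanylate-binding and immunity-related GTPases respond most to interferon gamma.

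The kidneys came from 9 male C57BL/6 mice in 3 groups of 3, each mouse being 1 library, and all 9 mice had lost 1 kidney by unilateral nephrectomy at the age of 18 months. Mice of the 18 mo group were killed 1 week later, and no injections are described for them. The 21 mo group received saline intraperitoneally for 12 weeks, and the 21 mo/O304 group received O304, an activator of the energy-sensing kinase AMPK, by the same route over the same 12 weeks, at a daily dose of 10 mg/kg. The 18 mo group thus differed from the others in age, in time after surgery and in the injections, whose parts cannot be told apart, whereas the 21 mo and 21 mo/O304 groups differed in the drug. No young mice and no mice with both kidneys were among the libraries. The tissue is kidney, and the paper does not say which part was taken for RNA. Every value is an average over the cell types of that tissue.

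Counts on genes totalled 15636378 to 18396725 per library, so that 1 count was worth 0.0458 to 0.0669 CPM, the count scaled to a common library size, after normalization by TMM. The 3 libraries of the 21 mo group differed among themselves more than those of the other groups, with a biological coefficient of variation of 44.2%, against 18.1% at 18 mo and 20.6% under O304. Replicate 1 of the 21 mo group stood nearer to the 18 mo libraries than replicates 2 and 3 did in the summed markers of proximal tubule and injured tubule given further on. No replicates of a group agreed within sampling noise, the chi-square of their counts being 14.6 to 309 times its degrees of freedom.

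First, the levels of the genes were compared with each other in the 18 mo kidneys on the FPKM scale, which takes gene length into account. Ifitm3, which blocks the entry of enveloped viruses through the membranes of endosomes, had the highest mean FPKM of the 43 at 85.5 ± 19.8 (SD, n = 3). Ifi27l2a followed at 79.8 FPKM, Ifitm2 at 48.7 FPKM, Bst2 at 32.8 FPKM, Ifi27 at 29.0 FPKM and Lgals3bp at 24.4 FPKM. At the other end, the 2'-5' oligoadenylate synthetase gene Oas3 had a mean of 0.181 FPKM, and the dynamin-like GTPase genes Mx1 and Mx2 had 0.369 and 0.403 FPKM. The genes at the low end rest on few reads, and their values carry correspondingly more counting error.

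Positions are those of the authors' table on the mouse build GRCm38, where the 43 genes lie on 13 chromosomes. Of them, 26 form 10 clusters in which neighbours lie within 1 Mb. Ifit2, Ifit3, Ifit3b and Ifit1 lie together at chr19:34550694-34650009, and Gbp7, Gbp3 and Gbp2 at chr3:142530342-142638008. Oas2, Oas3 and Oas1a occupy chr5:120730333-120907521, while Ifitm2, Ifitm1 and Ifitm3 share chr7:140954837-141266481 with Irf7. Rsad2 and Cmpk2 are neighbours at chr12:26442746-26479837, Ifi27 and Ifi27l2a at chr12:103434211-103443680, and Igtp and Irgm2 overlap on the same strand at chr11:58199556-58222782. The annotated spans of 17 of the 43 genes overlap another gene, in 9 cases on the same strand, and paralogs such as Ifit3 and Ifit3b or the Gbp genes share similar sequence, so the split of reads among them is uncertain.

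Next, to see how the genes stood in the older mice, the 21 mo kidneys were compared with the 18 mo kidneys. Of the 43 genes, 41 had a log2 fold change above 0, with a median of 0.85 over the list against 0.03 over all genes tested, and a range from -0.26 for Rsad2 to 1.495 for Gbp2. In the same fit, 52.7% of all genes tested lay above 0 and 47.3% below. None of the 43 passed the edgeR quasi-likelihood test at an adjusted p under 0.05, which 0.0189% of all genes did upward. The smallest adjusted p was 0.0718. At an unadjusted p under 0.05 there were 21 of the 43 higher and 0 lower, against 14% of all genes higher and 12% lower. In 20 of the 43 every 21 mo library lay above every 18 mo library, which held for 13.5% of all genes, and in 0 every 21 mo library lay below, against 15.3%. Because these are bulk samples, a larger share of cells that express a gene and more RNA of it per cell cannot be told apart.

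The call depended on 1 library and on the test. Without replicate 1 of the 21 mo group, edgeR placed 22 of the 43 genes at an adjusted p under 0.05 as higher, against 13.6% of all genes tested. Leaving out any of the other libraries gave 0. DESeq2 on all libraries called 15 of the 43 higher and 0 lower, among 6.9% and 5.41% of all genes. With every gene that had at least 1 count kept in the fit, edgeR called 7 of the 43, namely Irf9, Ifit1, Gbp2, Gbp3, Gbp7, Irgm1 and Ifi27, among 1.43% of all genes. limma voom with sample quality weights, which gives less weight to libraries that stand apart, called 34 of the 43, among 26.3% of all genes. Its log2 fold changes of Ifi27, Irf9 and Irgm1, at 0.84, 0.91 and 1.28, lay nearest to 21 mo replicate 2. How far its count rests on that library was not tested. Upper-quartile normalization, DESeq2 size factors in edgeR and limma on log2(FPKM + 1) called 0. So did the fits to the 6 libraries compared alone and with a block for replicate number. At most 0.0189% of all genes were called higher there.

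**Figure D1:**
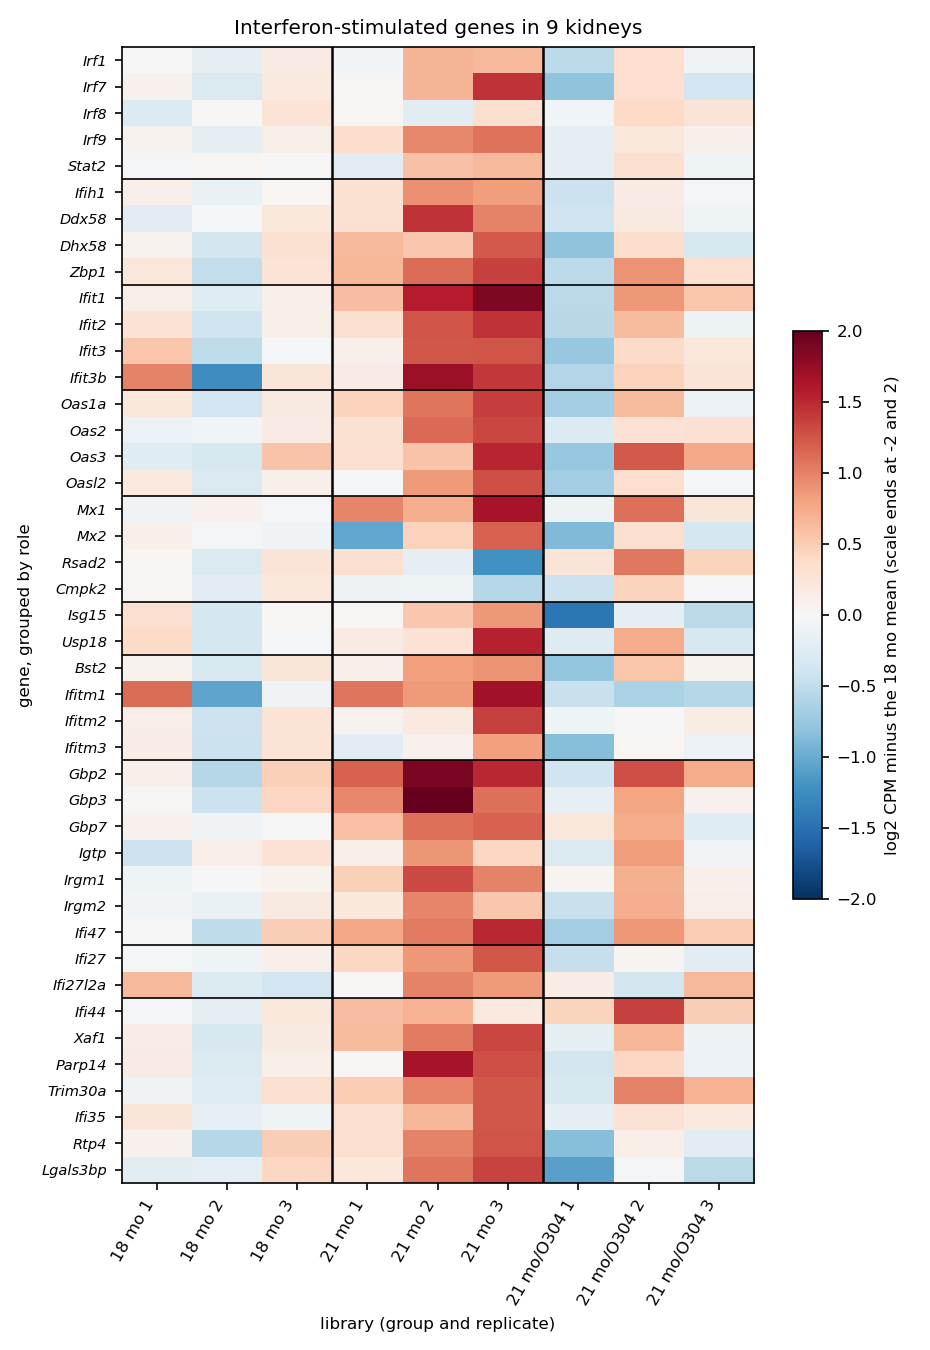
Level of each of the 43 interferon-stimulated genes (rows, grouped by role) in each of the 9 kidneys (columns), as log2 CPM minus the gene's mean over the 18 mo libraries, with red above and blue below. Replicates 2 and 3 of the 21 mo group are red in most rows, replicate 1 less so, and Rsad2 and Cmpk2 are the rows that are blue in replicate 3.

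The transcription factors carry the signal from the receptor and sustain it. Irf9, the DNA-binding partner of STAT2, stood at 23.4, 19.4 and 24.2 CPM in 18 mo replicates 1 to 3, at 28.5, 43.2 and 47.1 CPM in those of 21 mo and at 19.5, 25.98 and 23.8 CPM in those of 21 mo/O304. Every 21 mo library lay above every library of the other groups. In log2, Irf9 differed by 0.83 (SE 0.20, adjusted p = 0.0741) between 21 mo and 18 mo and by -0.78 (SE 0.20, adjusted p = 0.175) between 21 mo/O304 and 21 mo. The other 4 were Irf1, Irf7, Irf8 and Stat2, and their groups overlapped in both comparisons. Their log2 fold changes lay between 0.04 and 0.82 in 21 mo against 18 mo and between -1.05 and 0.15 in 21 mo/O304 against 21 mo. Irf7, which amplifies the production of type I interferon, had the widest spread of the 5 among the 21 mo libraries, from 29.3 CPM in replicate 1 to 78.9 CPM in replicate 3. Irf8, a factor of dendritic cells and other myeloid cells, had the smallest difference of the 43 in the first comparison, with 28.2 ± 5.29 CPM at 18 mo and 28.96 ± 5.48 CPM at 21 mo (SD, n = 3 each).

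The nucleic acid sensors detect viral RNA or unusual DNA and start interferon production. In all 4 every 21 mo library lay above every 18 mo library, against 13.5% of all genes. Ddx58, which encodes the RNA sensor RIG-I, had 17.96, 20.5 and 24.3 CPM in the 18 mo libraries, 25.6, 56.5 and 41.4 CPM in the 21 mo libraries and 15.8, 23.6 and 19.6 CPM in the 21 mo/O304 libraries. Replicate 2 of the 21 mo group was the highest of the 9, and the 21 mo/O304 libraries lay below all 21 mo libraries. For Ddx58, edgeR gave 0.98 (SE 0.28, adjusted p = 0.0865) in log2 for 21 mo against 18 mo and -1.07 (SE 0.28, adjusted p = 0.175) for 21 mo/O304 against 21 mo. Ifih1, which encodes the RNA sensor MDA5, was measured at 18.02, 15.3 and 17.3 CPM in the 18 mo mice, 20.9, 31.8 and 30.1 CPM in the 21 mo mice and 12.4, 18.9 and 16.4 CPM in the 21 mo/O304 mice. It showed the same separation of the 21 mo libraries from both other groups, with log2 fold changes of 0.71 (SE 0.20, adjusted p = 0.0887) in 21 mo against 18 mo and -0.79 (SE 0.20, adjusted p = 0.175) in 21 mo/O304 against 21 mo. Dhx58, which encodes the related helicase LGP2, had a log2 fold change of -1.05 in 21 mo/O304 against 21 mo, without overlap. Zbp1, a sensor of Z-form nucleic acid that can trigger necroptosis, overlapped between those groups, with 10.1 ± 2.46 CPM with saline and 6.08 ± 2.87 CPM with O304 (SD, n = 3 each).

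The Ifit proteins bind viral RNA and block its translation. Ifit1 stood at 7.87, 5.98 and 7.69 CPM in 18 mo replicates 1 to 3, at 10.97, 21.5 and 26.2 CPM in those of 21 mo and at 4.88, 13.1 and 10.5 CPM in those of 21 mo/O304. All 21 mo libraries were above all 18 mo libraries, but replicate 2 of the 21 mo/O304 group reached above replicate 1 of the 21 mo group. Ifit1 had log2 fold changes of 1.45 (SE 0.40, adjusted p = 0.0849) in 21 mo against 18 mo and -1.04 (SE 0.40, adjusted p = 0.204) in 21 mo/O304 against 21 mo. Over the 4 Ifit genes the log2 fold changes ran from 0.90 to 1.45 in 21 mo against 18 mo and from -1.15 to -0.94 in 21 mo/O304 against 21 mo. The median of the 4 in each 21 mo library, relative to the 18 mo mean, was 0.24, 1.41 and 1.43 in log2, so that replicate 1 stood close to the 18 mo level and the other replicates did not. Ifit3b, the near copy of Ifit3, had the widest spread among the 18 mo libraries in this family, from 1.79 to 8.92 CPM.

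The Oas enzymes make the second messenger that activates the RNA-cutting enzyme RNase L. All 4 had fitted values above 0 in 21 mo against 18 mo, against 52.7% of all genes, with log2 fold changes of 0.80 to 1.02. Oas1a and Oas2 had groups without overlap, against 13.5% of all genes. In 21 mo/O304 against 21 mo the 4 lay between -0.98 and -0.30. Only Oas2 was without overlap there, against 10.5% of all genes lower. The value of Oas3, at -0.30, turned to 0.19 without replicate 3 of the 21 mo group and to 0.092 without replicate 1 of the 21 mo/O304 group. Replicate 3 was the highest of the 21 mo libraries for all 4.

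Mx1, Mx2, Rsad2 and Cmpk2 did not move as a set. Mx1 ranged from 1.36 to 1.54 CPM at 18 mo and from 2.44 to 4.76 CPM at 21 mo, without overlap. Mx2 is annotated as a polymorphic pseudogene, and the RNA of either gene does not show whether a working Mx protein is made. Rsad2, which encodes the antiviral enzyme viperin, had 23.4, 18.9 and 27.5 CPM in the 18 mo libraries, 28.8, 20.1 and 9.85 CPM in the 21 mo libraries and 27.6, 48.04 and 31.4 CPM in the 21 mo/O304 libraries. Within the 21 mo group replicate 1 was the highest and replicate 3 the lowest, whereas 29 of the 43 genes were highest in replicate 3. In log2, Rsad2 differed by -0.26 (SE 0.36, adjusted p = 0.676) between 21 mo and 18 mo and by 0.87 (SE 0.36, adjusted p = 0.227) between 21 mo/O304 and 21 mo. Cmpk2, the neighbour of Rsad2 and a nucleotide kinase that supplies the substrate of viperin, is described here because of its values. It stood at 18.8, 15.8 and 21.6 CPM in the 18 mo libraries, 17.4, 17.6 and 12.5 CPM in the 21 mo libraries and 13.8, 25.3 and 18.5 CPM in the 21 mo/O304 libraries. The groups overlapped, and its log2 fold changes were -0.24 (SE 0.24) in 21 mo against 18 mo and 0.28 (SE 0.24) in 21 mo/O304 against 21 mo. Rsad2 and Cmpk2 were the 2 of the 43 genes with a value below 0 in the first comparison. The value of Rsad2 turned to 0.050 without 21 mo replicate 3.

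Isg15, a ubiquitin-like protein that is joined to other proteins in infected cells, was measured at 10.03, 6.22 and 8.20 CPM in the 18 mo mice, 8.09, 11.7 and 14.8 CPM in the 21 mo mice and 2.85, 7.03 and 5.54 CPM in the 21 mo/O304 mice. The 18 mo and 21 mo libraries overlapped, and the 21 mo/O304 libraries lay below all 21 mo libraries. For Isg15, edgeR gave 0.50 (SE 0.35, adjusted p = 0.391) in log2 for 21 mo against 18 mo and -1.16 (SE 0.36, adjusted p = 0.177) for 21 mo/O304 against 21 mo. Usp18, which removes ISG15 and damps the interferon receptor, was at 4.82, 5.23 and 12.6 CPM in the 21 mo libraries, so that replicate 3 alone stood above the highest 18 mo library, at 5.64 CPM.

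Among the membrane restriction factors, tetherin (Bst2) holds budding virions to the cell surface and the Ifitm proteins block viral entry. Ifitm1 stood at 17.5, 3.82 and 7.69 CPM in 18 mo replicates 1 to 3, at 16.9, 14.7 and 26.1 CPM in those of 21 mo and at 5.87, 5.13 and 5.35 CPM in those of 21 mo/O304. The 18 mo libraries spread widely, replicate 1 lying within the range of the 21 mo group, while the 3 libraries of the 21 mo/O304 group lay close together and below all 21 mo libraries. Ifitm1 had log2 fold changes of 0.99 (SE 0.47, adjusted p = 0.216) in 21 mo against 18 mo and -1.82 (SE 0.48, adjusted p = 0.175) in 21 mo/O304 against 21 mo. For Bst2, Ifitm2 and Ifitm3 the groups overlapped in both comparisons, with log2 fold changes of 0.27 to 0.65 and of -0.66 to -0.56. Without replicate 3 of the 21 mo group, the value of Ifitm3 in the first comparison turned from 0.27 to -0.11.

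**Figure D2:**
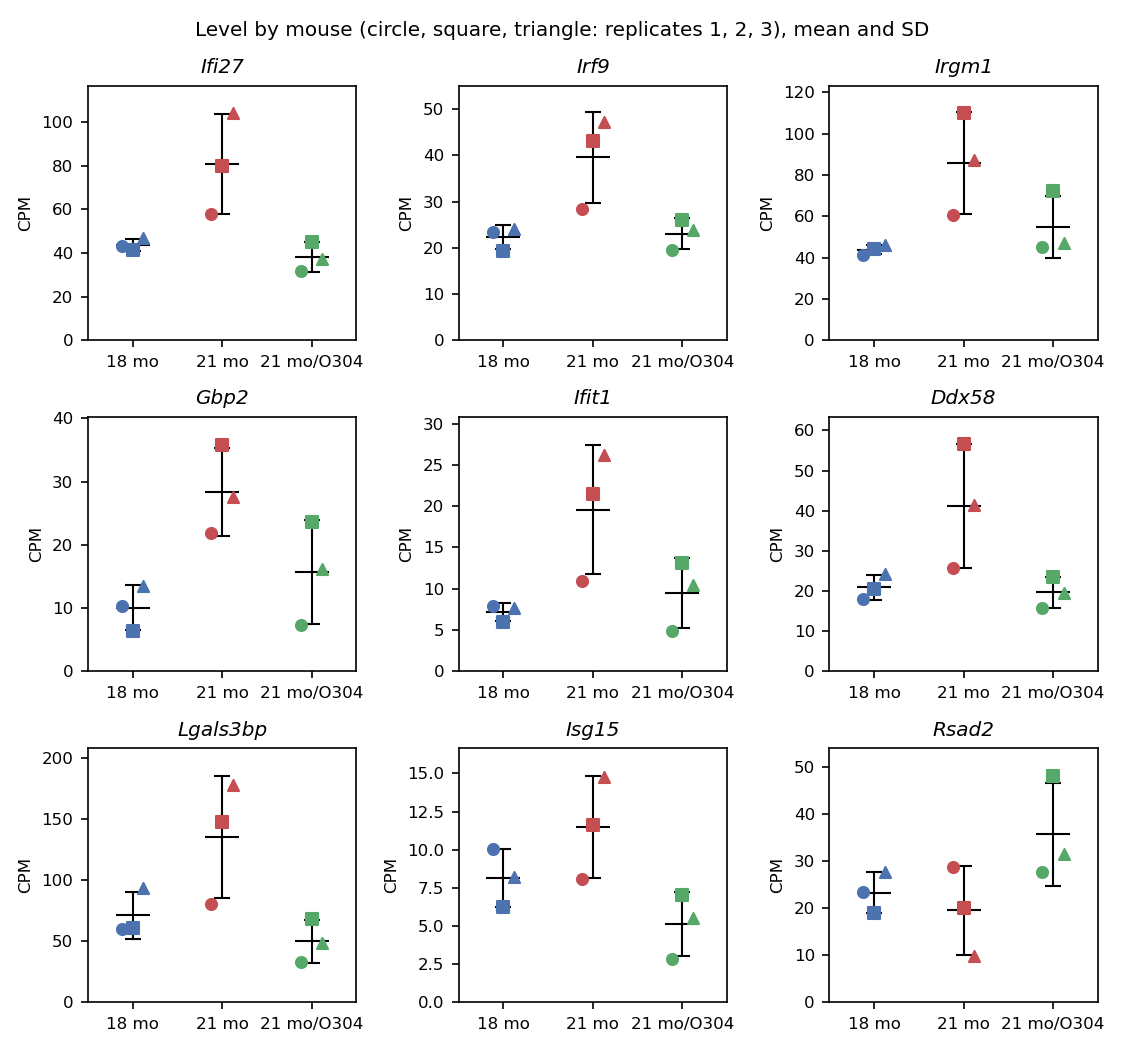
CPM (y axis, from 0) of 9 of the genes in every kidney by group (x axis), with the symbol giving the replicate and lines giving the mean and SD of 3 mice. For Ifi27, Irf9 and Ddx58 the 21 mo kidneys lie above both other groups, and for Rsad2 they do not.

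The interferon-inducible GTPases attack the membranes around intracellular microbes. All 7 had fitted values above 0 in 21 mo against 18 mo, against 52.7% of all genes. In 6 of them the groups did not overlap, against 13.5% of all genes. Gbp2 had 10.3, 6.41 and 13.5 CPM in the 18 mo libraries, 21.8, 35.7 and 27.5 CPM in the 21 mo libraries and 7.27, 23.7 and 16.2 CPM in the 21 mo/O304 libraries. The 21 mo libraries lay above all 18 mo libraries, whereas replicate 2 of the 21 mo/O304 group lay within the 21 mo range. In log2, Gbp2 differed by 1.495 (SE 0.42, adjusted p = 0.0864) between 21 mo and 18 mo and by -0.85 (SE 0.41, adjusted p = 0.269) between 21 mo/O304 and 21 mo. Gbp3 was measured at 10.4, 7.52 and 13.6 CPM in the 18 mo mice, 20.1, 42.2 and 22.2 CPM in the 21 mo mice and 9.13, 17.8 and 10.8 CPM in the 21 mo/O304 mice. Here all 21 mo/O304 libraries were below all 21 mo libraries. For Gbp3, edgeR gave 1.42 (SE 0.37, adjusted p = 0.0792) in log2 for 21 mo against 18 mo and -1.16 (SE 0.36, adjusted p = 0.178) for 21 mo/O304 against 21 mo. Gbp7 stood at 12.02, 10.8 and 11.2 CPM in 18 mo replicates 1 to 3, at 17.3, 24.4 and 25.9 CPM in those of 21 mo and at 13.3, 19.01 and 9.55 CPM in those of 21 mo/O304. Replicate 2 of the 21 mo/O304 group again lay above the lowest 21 mo library. Gbp7 had log2 fold changes of 0.99 (SE 0.25, adjusted p = 0.0789) in 21 mo against 18 mo and -0.69 (SE 0.25, adjusted p = 0.197) in 21 mo/O304 against 21 mo.

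Irgm1, a regulatory GTPase that guards the cell's own membranes, had 41.4, 44.3 and 45.9 CPM in the 18 mo libraries, 60.8, 110 and 87.1 CPM in the 21 mo libraries and 45.4, 72.1 and 46.9 CPM in the 21 mo/O304 libraries. It showed no overlap between 18 mo and 21 mo and an overlap between 21 mo and 21 mo/O304, through replicate 2 of the latter. In log2, Irgm1 differed by 0.97 (SE 0.24, adjusted p = 0.076) between 21 mo and 18 mo and by -0.65 (SE 0.24, adjusted p = 0.198) between 21 mo/O304 and 21 mo. Igtp, Irgm2 and Ifi47 had log2 fold changes of 0.49, 0.61 and 1.09 in 21 mo against 18 mo and of -0.26, -0.40 and -0.79 in 21 mo/O304 against 21 mo. Of the 7 GTPases, 5 were highest in replicate 2 of the 21 mo group, and the median of the 7 relative to the 18 mo mean was 0.60, 1.10 and 1.11 in log2 in replicates 1 to 3. The corresponding medians of the transcription factors were 0.03, 0.68 and 0.66, and of the membrane restriction factors 0.08, 0.51 and 1.14.

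Ifi27, a small protein of the mitochondrial and nuclear membranes, had the smallest p of the 43 in both comparisons. It was measured at 43.05, 41.6 and 46.8 CPM in the 18 mo mice, 58.1, 80.1 and 104 CPM in the 21 mo mice and 31.7, 45.3 and 37.3 CPM in the 21 mo/O304 mice. The 21 mo libraries were above all others and did not overlap them. For Ifi27, edgeR gave 0.88 (SE 0.21, adjusted p = 0.0718) in log2 for 21 mo against 18 mo and -1.09 (SE 0.21, adjusted p = 0.175) for 21 mo/O304 against 21 mo. Its neighbour Ifi27l2a overlapped between all groups, with means of 38.2 ± 16.1 CPM at 18 mo, 58.1 ± 18.9 CPM at 21 mo and 41.6 ± 14.3 CPM with O304 (SD, n = 3 each).

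Of the 7 remaining genes, all had fitted values above 0 in 21 mo against 18 mo, against 52.7% of all genes. In 21 mo/O304 against 21 mo, 6 of the 7 had values below 0, against 51.8% of all genes. Lgals3bp, a secreted glycoprotein that binds galectins, stood at 59.95, 60.9 and 93.7 CPM in 18 mo replicates 1 to 3, at 81.01, 148 and 178 CPM in those of 21 mo and at 33.03, 68.6 and 48.3 CPM in those of 21 mo/O304. Replicate 1 of the 21 mo group fell within the 18 mo range, and all 21 mo/O304 libraries were below all 21 mo libraries. Lgals3bp had log2 fold changes of 0.92 (SE 0.35, adjusted p = 0.14) in 21 mo against 18 mo and -1.44 (SE 0.35, adjusted p = 0.175) in 21 mo/O304 against 21 mo. Rtp4 had 10.3, 6.53 and 13.9 CPM in the 18 mo libraries, 12.2, 19.6 and 23.7 CPM in the 21 mo libraries and 5.35, 10.7 and 8.47 CPM in the 21 mo/O304 libraries. The pattern was the same, with an overlap between 18 mo and 21 mo and none between 21 mo and 21 mo/O304. In log2, Rtp4 differed by 0.85 (SE 0.36, adjusted p = 0.175) between 21 mo and 18 mo and by -1.18 (SE 0.36, adjusted p = 0.176) between 21 mo/O304 and 21 mo. Xaf1, which promotes cell death, Trim30a, a regulator of inflammatory signalling, and Ifi35 were each without overlap between 18 mo and 21 mo, with log2 fold changes of 1.03, 0.93 and 0.79. Parp14, an ADP-ribosyltransferase, overlapped because replicate 1 of the 21 mo group was at 19.7 CPM, while replicates 2 and 3 were at 61.7 and 48.1 CPM.

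The effect of O304 was then addressed by comparing the 21 mo/O304 kidneys with the 21 mo kidneys, which are the same 3 libraries as in the comparison with the 18 mo group, so the 2 sets of values are not independent. Of the 43 genes, 39 had a log2 fold change below 0, with a median of -0.78 against -0.02 over all genes tested, and a range from -1.82 for Ifitm1 to 0.87 for Rsad2. Below 0 lay 51.8% of all genes and above it 48.2%. None of the 43 passed the edgeR quasi-likelihood test at an adjusted p under 0.05, nor did any gene tested (0% in either direction), and the smallest adjusted p among the 43 was 0.175. At an unadjusted p under 0.05 there were 22 of the 43 lower and 1 higher, against 12.4% of all genes lower and 8.27% higher. In 12 of the 43 all 21 mo/O304 libraries lay below all 21 mo libraries, which held for 10.5% of all genes, and in 0 all lay above, against 10.8%. The 1 higher gene was Rsad2, and the genes above 0 were Rsad2, Ifi44, Cmpk2 and Irf8, of which Ifi44 turned to -0.065 without replicate 2 of the 21 mo/O304 group.

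Here too, leaving out replicate 1 of the 21 mo group changed the count, to 23 of the 43 lower and 1 higher at an adjusted p under 0.05 in edgeR, against 12.6% and 10.6% of all genes. Leaving out any of the other 8 libraries gave 0. DESeq2 on all libraries called 9 of the 43 lower and 0 higher, among 4.04% and 1.71% of all genes. limma voom with sample quality weights called 31 lower and 2 higher, among 19.8% and 21.2% of all genes. It is the same fit as above, whose values for Ifi27, Irf9 and Irgm1 lay nearest to 21 mo replicate 2. Upper-quartile normalization, DESeq2 size factors in edgeR, limma on log2(FPKM + 1) and the fit with every gene of at least 1 count called 0. So did the fits to the 6 libraries compared alone and with a block for replicate number. At most 0.0319% of all genes were called in either direction there.

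**Figure D3:**
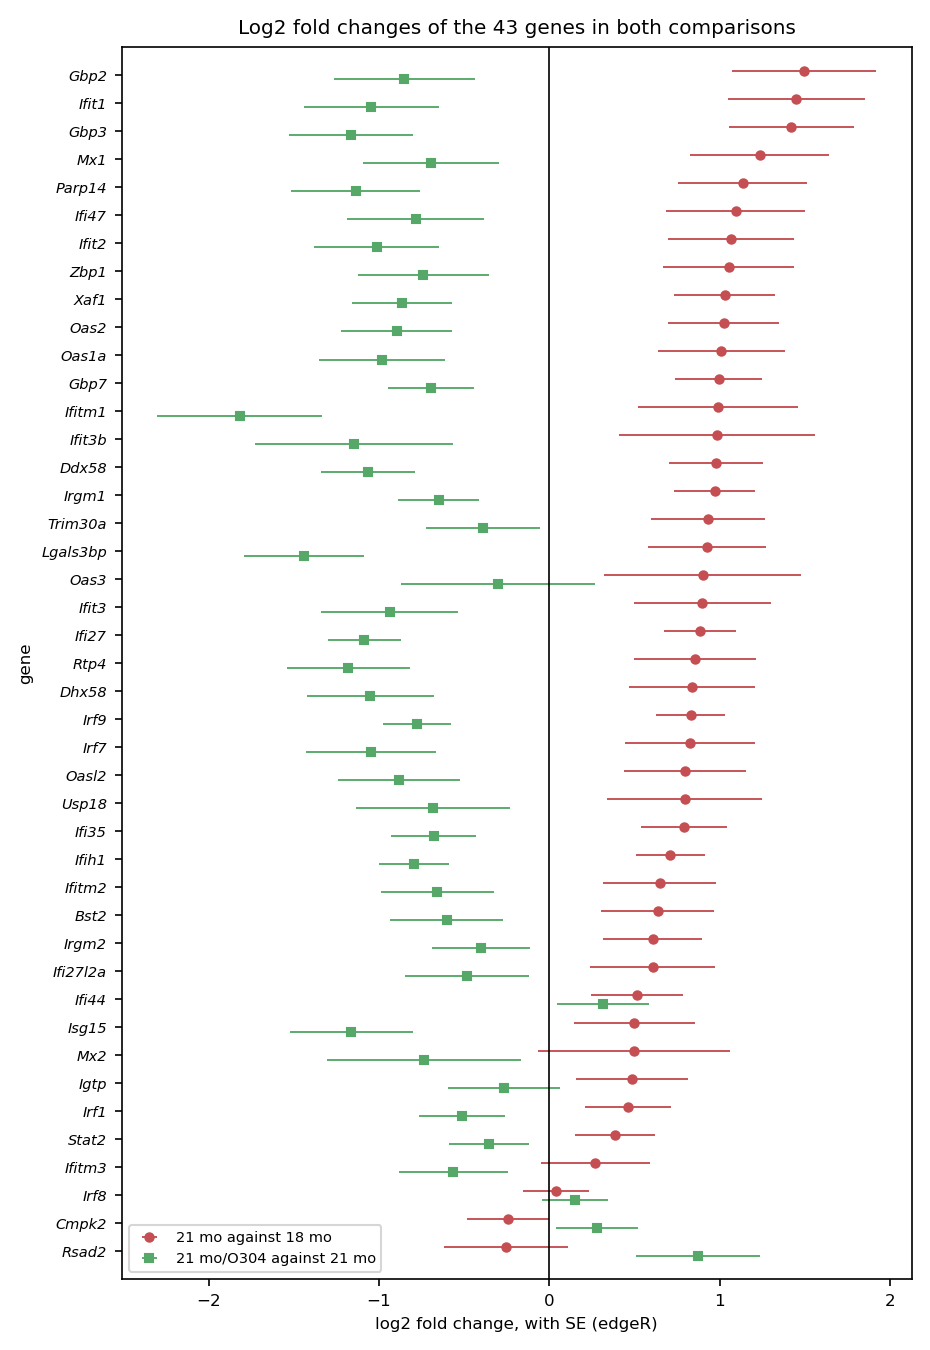
Log2 fold change with its SE (x axis) of each of the 43 genes (y axis) in 21 mo against 18 mo (circles) and 21 mo/O304 against 21 mo (squares) from edgeR on all 9 libraries. The circles lie to the right of 0 for 41 genes and the squares to the left for 39, and both comparisons use the same 21 mo libraries.

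**Figure D4:**
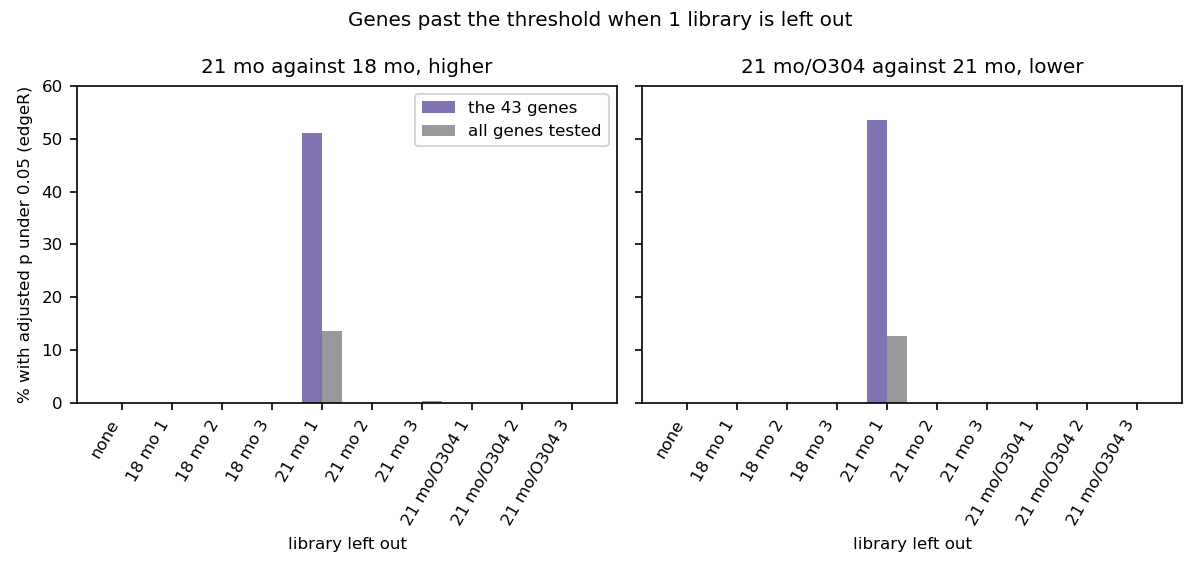
Share of the 43 genes and of all genes tested (y axis, %) with an adjusted p under 0.05 in edgeR when no library or 1 library is left out (x axis), for genes higher in 21 mo than in 18 mo and lower in 21 mo/O304 than in 21 mo. The share of the 43 is above 0 only without replicate 1 of the 21 mo group, where 22 and 23 genes pass.

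The 21 mo/O304 kidneys were also compared directly with the 18 mo kidneys. Values above 0 were found for 26 of the 43 genes and below 0 for 17, against 50.4% and 49.6% of all genes, and the median log2 fold change was 0.05. None passed an adjusted p under 0.05 in edgeR, as for all genes tested (0%), and DESeq2 and limma voom with quality weights also called 0. At an unadjusted p under 0.05 there was 1 higher, Ifi44, and 0 lower, against 4.33% and 5.33% of all genes. All 21 mo/O304 libraries lay above all 18 mo libraries for 2 of the 43, Ifi44 and Rsad2, against 13.2% of all genes, and below them for 0, against 13.3%.

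Ifi44 was measured at 11.2, 9.92 and 13.4 CPM in the 18 mo mice, 17.6, 18.6 and 13.1 CPM in the 21 mo mice and 15.6, 29.6 and 16.04 CPM in the 21 mo/O304 mice. Replicate 2 of the 21 mo/O304 group was the highest of the 9, and the 21 mo libraries overlapped both other groups. In 21 mo/O304 against 18 mo, Ifi44 differed by 0.83 (SE 0.27, adjusted p = 0.401) in log2. For Rsad2, whose libraries are given above, the log2 fold change against 18 mo was 0.62 (SE 0.36, adjusted p = 0.626). Trim30a stood at 8.18, 7.21 and 10.7 CPM in 18 mo replicates 1 to 3, at 12.3, 17.05 and 20.3 CPM in those of 21 mo and at 6.86, 17.2 and 13.9 CPM in those of 21 mo/O304. Its 21 mo/O304 libraries spanned the 18 mo range and beyond, and the log2 difference was 0.54 (SE 0.34, adjusted p = 0.651). The other genes with the smallest p in this comparison were Isg15, with a log2 difference of -0.67 (SE 0.36, adjusted p = 0.595), Ifitm1, with -0.83 (SE 0.48, adjusted p = 0.618), and Gbp2, with 0.64 (SE 0.42, adjusted p = 0.664). The median of the 43 turned below 0 without replicate 2 of the 18 mo group, to -0.05, and without replicate 2 of the 21 mo/O304 group, to -0.19.

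Within a group, most of the genes put the mice in a similar order. In the 21 mo/O304 group, replicate 2 was the highest of the 3 libraries for 39 of the 43 genes and replicate 1 the lowest for 39, against 30.9% and 33.7% of all genes. Replicate 3 was the highest for 3 genes, Oas2, Ifitm2 and Ifi27l2a, against 34.7% of all genes. The median gap between replicates 2 and 1 was 0.99 in log2 over the 43 genes, a 1.98-fold difference, and -0.02 over all genes. Relative to the 18 mo mean the median of the 43 was -0.43 in replicate 1, 0.41 in replicate 2 and -0.01 in replicate 3 of the 21 mo/O304 group. Replicate 1 had 28 of the 43 genes below the range of the 18 mo libraries and 3 above it, against 30.4% and 30% of all genes. Replicate 2 had 32 above and 0 below, against 32.3% and 32.5%. Replicate 3 had 11 above and 7 below, against 31.7% and 31.3%. Replicates 1 and 2, which shared the same treatment, thus lay on different sides of the 18 mo level, and replicate 3 lay at it.

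In the 21 mo group the median of the 43 relative to the 18 mo mean was 0.31, 0.91 and 1.24 in replicates 1 to 3, and 22, 36 and 40 of the genes lay above the 18 mo range, against 31.1%, 37.3% and 41.3% of all genes. Replicate 3 was the highest for 29 of the 43, replicate 2 for 13 and replicate 1 for 1, against 40.3%, 21.8% and 37.9% of all genes. Those highest in replicate 2 included Ddx58, Ifih1, Irf1, Parp14 and 5 of the 7 GTPases, and those highest in replicate 3 included all 4 Oas genes, all 4 membrane restriction factors, Isg15 and Usp18. In the 18 mo group, replicate 2 was the lowest for 33 of the 43, against 35.3% of all genes. Over the 43 genes the median SD of log2 CPM was 0.28, 0.48 and 0.52 in the 18 mo, 21 mo and 21 mo/O304 groups, against 0.18, 0.37 and 0.20 over all genes, so the list varied among the O304-treated mice about as much as among the saline-injected mice of the same age.

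Of the genes upstream, the interferons themselves were not measurable at this depth. Of 21 interferon genes in the table, 17 had 0 counts in every library, and the 4 with any, Ifnb1, Ifnk, Ifnz and Ifng, reached at most 4 counts in a library. A count of 0 allows up to 3 counts, or 0.137 to 0.201 CPM, for counting error only, and none of the 21 could be tested.

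Of 15 genes of interferon receptors and JAK-STAT signalling, 14 lay above 0 in 21 mo against 18 mo, with a median of 0.41, against 52.7% of all genes. At an unadjusted p under 0.05, 7 were higher and 0 lower, against 14% and 12%. In 21 mo/O304 against 21 mo, 13 lay below 0, with a median of -0.29, against 51.8%. There 4 were lower and 0 higher, against 12.4% and 8.27%, and none passed the adjusted threshold in either comparison. The interferon gamma receptor genes were among those above 0 in the 21 mo kidneys. Ifngr1, the ligand-binding subunit, had 37.04, 41.8 and 41.2 CPM in the 18 mo libraries, 62.5, 67.5 and 150 CPM in the 21 mo libraries and 51.6, 59.6 and 52.1 CPM in the 21 mo/O304 libraries. All 21 mo libraries lay above the libraries of both other groups, with replicate 3 the highest. For Ifngr1, edgeR gave 1.22 (SE 0.30, adjusted p = 0.076) in log2 for 21 mo against 18 mo and -0.78 (SE 0.30, adjusted p = 0.206) for 21 mo/O304 against 21 mo. Ifngr2 differed by 0.86 in log2 (SE 0.27, adjusted p = 0.101) between 21 mo and 18 mo. Of the type I receptor subunits, Ifnar1 differed by 0.52 (SE 0.22, adjusted p = 0.185) and Ifnar2 by 0.17 (SE 0.22, adjusted p = 0.629), and of the type III receptor subunits, Ifnlr1 differed by 0.26 (SE 0.43) and Il10rb by 0.41 (SE 0.16).

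Over the 14 measured genes that induce interferon, such as the adaptors Mavs, Myd88 and Tmem173 and the receptors Tlr3 and Tlr7, the median log2 fold changes were 0.18 in 21 mo against 18 mo and -0.39 in 21 mo/O304 against 21 mo. None passed the adjusted threshold in edgeR. In this list 4 were higher and 1 lower at an unadjusted p under 0.05 in the first comparison, against 14% and 12% of all genes, and 6 lower and 1 higher in the second, against 12.4% and 8.27%.

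A further list of 55 interferon-stimulated genes that are not among the 43, of which 54 were tested, gave a median log2 fold change of 0.68 in 21 mo against 18 mo and -0.52 in 21 mo/O304 against 21 mo. In the first comparison 49 of the 54 lay above 0, against 52.7% of all genes, with 23 higher and 1 lower at an unadjusted p under 0.05, against 14% and 12%. In the second 45 lay below 0, against 51.8% of all genes, with 16 lower and 0 higher, against 12.4% and 8.27%. None passed an adjusted p under 0.05 in edgeR in either comparison. This list too was drawn up with results of these libraries known and shares their 21 mo mice.

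The summed CPM of some marker lists for other cell types moved with these values over the groups, and the order of the mice within a group differed between lists. Macrophage markers (12 genes, all tested) summed to 324 to 544 CPM at 18 mo, to 811, 1287 and 3881 CPM in replicates 1 to 3 at 21 mo and to 602 to 648 CPM with O304, with all 12 above 0 in 21 mo against 18 mo. Injured-tubule markers (8 genes) summed to 786 to 915 CPM in the 18 mo libraries, to 1416, 12477 and 14748 CPM in the 21 mo libraries and to 1194, 784 and 861 CPM in replicates 1 to 3 of the 21 mo/O304 group, where the highest sum was in the mouse with the lowest median of the 43 genes. Proximal tubule markers (10 genes), the defining genes of the main cell type of the kidney cortex, summed to 15975 to 19642 CPM at 18 mo, to 16716, 8471 and 2348 CPM at 21 mo and to 16718 to 17832 CPM with O304. Such sums weigh the most abundant genes most, so an order of mice need not hold for each marker. Lyz2 alone was at 2197 of the 3881 CPM of macrophage markers in replicate 3 of the 21 mo group. Among the injured-tubule markers, Spp1 reached 274078 counts in a library and Lcn2, the next highest, 27459. All 8 injured-tubule markers had fitted values above 0 in 21 mo against 18 mo. The part of these cell types in the differences of the interferon-stimulated genes was not tested.

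Replicate 1 of the 21 mo group had a median of 0.31 over the 43 genes and all 7 GTPases above the 18 mo mean. Its proximal tubule sum was within the range of the 18 mo libraries, while its injured-tubule and macrophage sums were above all of them. Fibroblast markers (8 genes) summed to 184 to 285 CPM at 18 mo, to 143, 587 and 1404 CPM at 21 mo and to 117 to 274 CPM with O304. Neutrophil markers (7 genes, with Ly6g and Mpo too low to test) summed to 7.02 to 12.8 CPM at 18 mo, to 65.2, 20.01 and 55.9 CPM in replicates 1 to 3 at 21 mo and to 14.2 to 22.98 CPM with O304. Their highest sum of all 9 libraries was in replicate 1 of the 21 mo group, where the median of the 43 was the lowest of that group. The part of fibroblasts and neutrophils in the levels of the 43 genes was not tested.

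In the 21 mo/O304 group, where replicate 2 was highest for most of the 43, lymphocyte markers showed the same mouse on top. T cell markers (10 genes) summed to 17.9, 57.6 and 22.3 CPM in replicates 1 to 3 and NK cell markers (6 genes, with Ncr1 too low to test) to 3.49, 16.6 and 8.85 CPM. B and plasma cell markers that passed the filter on low counts (8 genes) summed to 907, 2570 and 1723 CPM, in the same order as the median of the 43. In the other libraries they summed to 692, 417 and 722 CPM at 18 mo and to 618, 415 and 4666 CPM at 21 mo. Igkc, Ighm and Jchain were the most abundant of them, with up to 53296, 31679 and 13269 counts in a library. Endothelial cell markers (8 genes) summed to 466, 805 and 547 CPM with O304. In the 21 mo group they summed to 529, 352 and 251 CPM in replicates 1 to 3, the reverse of the order of the 43. All 8 lay below 0 in 21 mo against 18 mo, against 47.3% of all genes. All 8 lay above 0 in 21 mo/O304 against 21 mo, against 48.2% of all genes. Macrophage markers did not follow the order of the 43 in the 21 mo/O304 group, at 628, 602 and 648 CPM. The T cell sum of replicate 1 of the 21 mo group, at 46.5 CPM, was above the 17.96 and 25.8 CPM of replicates 2 and 3, and its NK cell sum, at 14.98 CPM, above 3.64 and 5.04 CPM, whereas the median of the 43 genes was lowest in that replicate. Dendritic cell markers (7 genes) summed to 19.1 to 42.9 CPM over all 9 libraries. Markers of plasmacytoid dendritic cells that are not among the 43 (3 genes, with Ccr9 too low to test) had at most 46 counts in a library. They summed to 1.80 to 2.72 CPM at 18 mo and to 2.07, 0.966 and 0.412 CPM in replicates 1 to 3 at 21 mo. With O304 their sum was 3.20 to 4.97 CPM. The part of these cell types in the levels of the 43 genes was not tested.

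**Figure D5:**
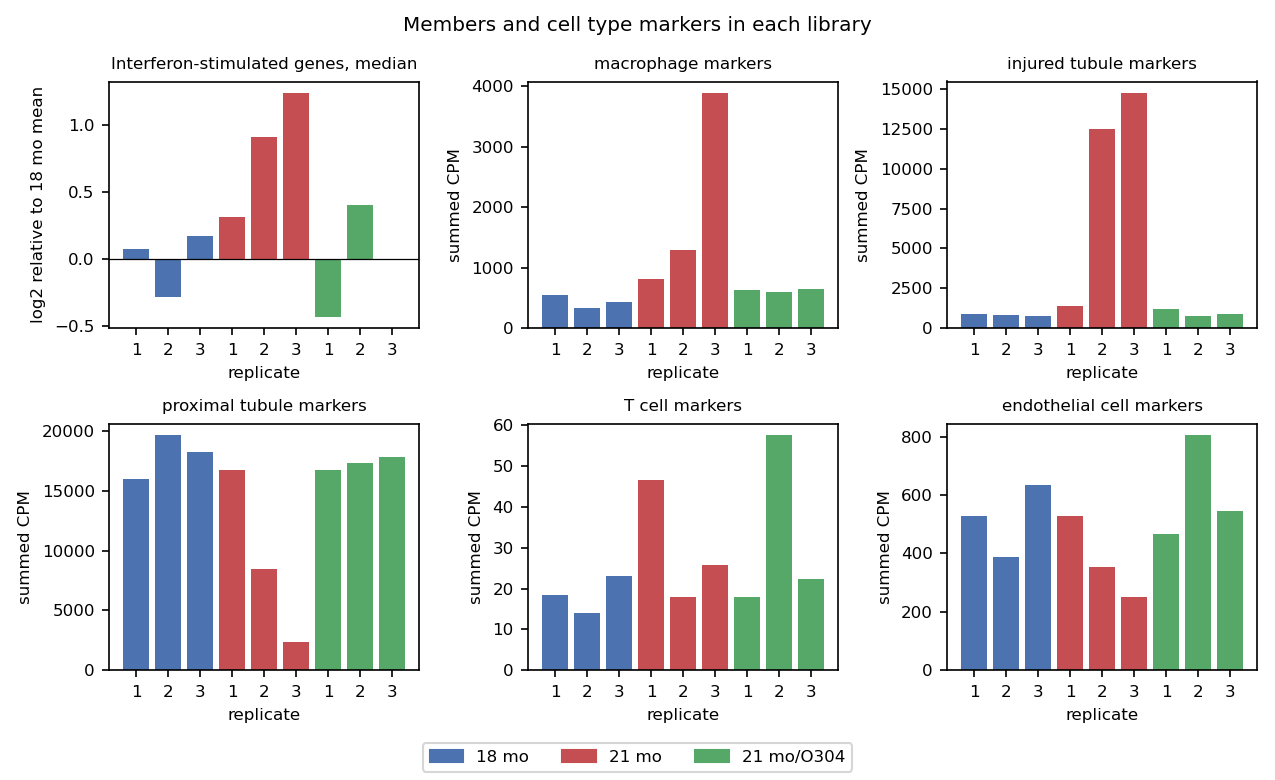
Median of the 43 genes in each kidney as log2 relative to the 18 mo mean (first panel) beside the summed CPM of 5 lists of cell type markers (y axes), by replicate (x axis) and group (colour). Macrophage and injured-tubule sums are highest in replicate 3 of the 21 mo group, and T cell and endothelial sums are highest in replicate 2 of the 21 mo/O304 group.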

How the data were processed

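Kidney RNA of 9 mice, 3 per group, was sequenced as paired-end libraries. Reads were aligned by the authors with HISAT2 2.0.5 and assigned to genes with featureCounts 1.5.0-p3. The deposited count of each gene is raw, and the FPKM beside it is the authors' count per length and depth. The build in the submitters' processing notes is GRCm38, and strandedness and the treatment of reads with several hits are not given in the sources used here. The table also holds the authors' DESeq2 1.20.0 log2 fold changes and p-values for 2 contrasts, and group means, which were not used.

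Genes were filtered with filterByExpr (minimum count 10, minimum total 15), normalized by TMM and tested with the edgeR 4.0.16 quasi-likelihood test in R 4.3.3 on all 9 libraries with 3 group means (6 residual degrees of freedom), two-sided, with Benjamini-Hochberg adjustment over all 15902 genes. log2 CPM used a prior count of 2. The 43 genes, the pathway lists and the marker lists were chosen with earlier results of these data known, and no test was run on a list. In each of the 2 main comparisons the 8 genes with the smallest p, and in 21 mo/O304 against 18 mo the 6, were given in full, and the others by range. Genes singled out beyond this, such as Cmpk2 and Irf8, were chosen after their values were seen. An exact permutation test of 3 mice against 3 cannot give a p under 0.1 and was not used for a call.

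Alternatives were DESeq2 1.42.0, limma 3.58.1 voom with quality weights, limma on log2(FPKM + 1), other normalizations and filters, a block for replicate number, a fit to the 6 libraries compared alone, an unadjusted p, and each library left out. The fits were tested on simulated data. Counts of 0 were read as up to 3 counts, for counting error only. No sequences are printed here. Results that need withheld items are not reported here.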

Additional observations from a re-analysis of the deposited data

How the results depend on the processing

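The direction of the median over the 43 genes was kept in 21 mo against 18 mo and in 21 mo/O304 against 21 mo under every alternative run, at 0.63 to 1.10 and at -1.14 to -0.57 when single libraries were left out. The number of genes above 0 was then 39 to 41 in the first and 3 to 5 in the second comparison. The number past the threshold was not kept. In 21 mo against 18 mo it was 15 higher with DESeq2 (6.9% of all genes) and 34 with voom and quality weights (26.3%). It was 7 with every gene of at least 1 count (1.43%) and 21 at an unadjusted p under 0.05 (14%). With single libraries left out it was 0 to 22, and with the remaining alternatives it was 0. In 21 mo/O304 against 21 mo it was 9 lower with DESeq2 (4.04% of all genes). It was 31 lower and 2 higher with voom (19.8% and 21.2%), and 22 lower and 1 higher at an unadjusted p (12.4% and 8.27%). With single libraries left out it was 0 to 23 lower and 0 to 1 higher, and with the remaining alternatives it was 0. Of the fits with 1 library left out, only that without 21 mo replicate 1 gave counts above 0. That fit keeps the libraries whose tubule marker sums stood furthest from the 18 mo group, and the cause was not tested. In 21 mo/O304 against 18 mo there was 1 higher at an unadjusted p, the median lay between -0.19 and 0.24, and 14 to 37 genes lay above 0, with single libraries left out.

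Directions turned for Irf8, whose log2 fold change in 21 mo against 18 mo was -0.30 with voom and -0.13 to 0.20 with single libraries left out, and for Mx2 (-0.12 to 0.92), Rsad2 (-0.62 to 0.050) and Ifitm3 (-0.11 to 0.49), all without 21 mo replicate 3. In 21 mo/O304 against 21 mo they turned for Oas3 (-0.78 to 0.19) and Ifi44 (-0.065 to 0.46). The fit with the replicate number as a block called 0 genes in each comparison. Same-numbered libraries deviated from their group means with correlations of -0.13 to 0.17. These are low, but with 3 libraries per group they cannot exclude that the numbers pair the mice. No sample was paired in the results above.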

Other observations

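Among genes of the pathway outside the 43, several stood out after their values were seen, and none passed an adjusted p under 0.05 in edgeR. Tlr7, an endosomal receptor for single-stranded RNA, had 1.73, 1.29 and 1.87 CPM in the 18 mo libraries, 6.35, 9.04 and 25.5 CPM in the 21 mo libraries and 2.44, 3.16 and 3.44 CPM in the 21 mo/O304 libraries. The 21 mo libraries were above both other groups. In log2, Tlr7 differed by 3.06 (SE 0.51, adjusted p = 0.0626) between 21 mo and 18 mo and by -2.18 (SE 0.49, adjusted p = 0.175) between 21 mo/O304 and 21 mo. Tmem173, which encodes the adaptor STING, was measured at 5.64, 4.07 and 5.77 CPM in the 18 mo mice, 9.30, 18.9 and 29.3 CPM in the 21 mo mice and 5.76, 7.09 and 4.20 CPM in the 21 mo/O304 mice. It too was without overlap between the 21 mo group and either other group. For Tmem173, edgeR gave 1.90 (SE 0.40, adjusted p = 0.0626) in log2 for 21 mo against 18 mo and -1.76 (SE 0.39, adjusted p = 0.175) for 21 mo/O304 against 21 mo. Socs3, an inhibitor of JAK signalling, stood at 8.11, 7.15 and 8.71 CPM in 18 mo replicates 1 to 3, at 10.6, 31.3 and 139 CPM in those of 21 mo and at 8.14, 7.27 and 10.2 CPM in those of 21 mo/O304. Replicate 3 of the 21 mo group was the highest by a wide margin. Socs3 had log2 fold changes of 2.92 (SE 0.77, adjusted p = 0.081) in 21 mo against 18 mo and -2.83 (SE 0.76, adjusted p = 0.175) in 21 mo/O304 against 21 mo. Irf3, the factor that starts transcription of the interferon genes, had 49.8, 48.8 and 48.5 CPM in the 18 mo libraries, and all 21 mo libraries lay below them. In log2, Irf3 differed by -0.32 (SE 0.10, adjusted p = 0.0992) between 21 mo and 18 mo and by 0.12 (SE 0.10, adjusted p = 0.477) between 21 mo/O304 and 21 mo.

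Of the further interferon-stimulated genes, Trim12c had the smallest p in 21 mo against 18 mo and had 10.8, 9.55 and 10.8 CPM in the 18 mo libraries, 17.5, 30.8 and 28.03 CPM in the 21 mo libraries and 15.2, 17.5 and 18.8 CPM in the 21 mo/O304 libraries. All 21 mo/O304 libraries were above all 18 mo libraries as well. For Trim12c, edgeR gave 1.29 (SE 0.21, adjusted p = 0.0626) in log2 for 21 mo against 18 mo and -0.57 (SE 0.21, adjusted p = 0.198) for 21 mo/O304 against 21 mo. Ifi207, of the interferon-inducible p200 family, was measured at 5.08, 3.08 and 5.54 CPM in the 18 mo mice, 9.97, 13.4 and 18.2 CPM in the 21 mo mice and 5.87, 8.70 and 6.81 CPM in the 21 mo/O304 mice. Its 21 mo libraries lay above both other groups. Ifi207 had log2 fold changes of 1.60 (SE 0.31, adjusted p = 0.0626) in 21 mo against 18 mo and -0.96 (SE 0.30, adjusted p = 0.178) in 21 mo/O304 against 21 mo. The chemokine gene Cxcl10, which attracts activated T cells, stood at 6.44, 7.58 and 7.52 CPM in 18 mo replicates 1 to 3, at 6.89, 53.4 and 9.80 CPM in those of 21 mo and at 3.90, 11.03 and 8.53 CPM in those of 21 mo/O304. A single library, replicate 2 of the 21 mo group, stood above all others.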
